A study of Mus musculus with 6 samples.

Results

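Genic p300 peaks without H3K4me3 were the p300 peaks that lay in a protein-coding gene, or within 1 kb of it, and shared no base with an H3K4me3 peak. There were 525 of them among the 6512 p300 peaks on chromosomes 1 to 19, X and Y (8.06%, exact 95% binomial interval 7.41 to 8.75). Among the 4735 p300 peaks in or within 1 kb of a protein-coding gene they made up 11.1% (10.2 to 12.0), a share fixed by how they were chosen. Members were chosen by the called positions of the p300 and H3K4me3 peaks and by gene positions, and fold, −log10 q and read number entered only through the authors' own peak calling.

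Both lists came from wild-type B16 cells, a mouse melanoma line, profiled by CUT&Tag, in which an antibody brings a transposase to its target so that nearby DNA is cut and tagged. The series studied thymine DNA glycosylase in p53-deficient cancer cells and holds 6 samples. The 4 libraries for H3K9me3, a mark of silent chromatin, came from wild-type, Tdg knockout, Trp53 knockout and double knockout B16 cells and were not analysed here. The antibodies of the libraries used were against p300 and H3K4me3, with 1 library each. No difference described here therefore has a replicate check, no test was made, and intervals cover counting error only, treating peaks as independent. No treatment is named in the labels, and 1 culture condition served all groups.

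The protein p300 is a histone acetyltransferase that transcription factors such as p53, MITF and AP-1 recruit to DNA, and it acetylates histones at both promoters and enhancers. H3K4me3, trimethylated lysine 4 of histone H3, is laid down around active transcription start sites, whereas enhancers typically carry monomethylated lysine 4 instead. A p300 peak inside a gene and away from H3K4me3 has the arrangement known from intronic enhancers, although neither monomethylation nor acetylation was measured in these libraries.

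For sequence, RefSeq promoter windows of GRCm38.p6 were used, each reaching from 250 bases before an annotated start to 50 after it. The members touched 14 of these 32851 windows, and the bases before the start are printed for 5 of them, up to the edge of the p300 peak for Cdkn1a and Atp2b1. They were picked to show the range from a CpG-poor window with a p53 motif to a CpG-rich one with a GC box. In the Cdkn1a sequence the capitals mark p53 half-sites, in Bbc3 a pair of adjacent half-sites with mismatches, GC boxes of the SP/KLF family (GGGCGG) and a TFAP2 motif (GCCNNNGGC). In Pla2g2e they mark an AP-1 motif (TGANTCA), and in Atp2b1 a GC box. The Tmem144 stretch held none of the motifs searched. Each is written 5′ to 3′ on the strand of its gene.
Cdkn1a chr17:29090791-29090978 (+): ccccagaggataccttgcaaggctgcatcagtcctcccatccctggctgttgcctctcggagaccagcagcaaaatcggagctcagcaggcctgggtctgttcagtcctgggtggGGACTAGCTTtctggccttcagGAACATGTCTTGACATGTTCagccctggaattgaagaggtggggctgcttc
Bbc3 chr7:16309333-16309582 (+): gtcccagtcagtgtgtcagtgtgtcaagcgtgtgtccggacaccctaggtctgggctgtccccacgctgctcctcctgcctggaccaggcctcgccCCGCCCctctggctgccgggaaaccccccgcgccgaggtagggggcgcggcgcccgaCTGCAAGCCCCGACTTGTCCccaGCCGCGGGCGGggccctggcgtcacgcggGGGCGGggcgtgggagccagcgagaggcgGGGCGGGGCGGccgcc
Pla2g2e chr4:138877692-138877941 (+): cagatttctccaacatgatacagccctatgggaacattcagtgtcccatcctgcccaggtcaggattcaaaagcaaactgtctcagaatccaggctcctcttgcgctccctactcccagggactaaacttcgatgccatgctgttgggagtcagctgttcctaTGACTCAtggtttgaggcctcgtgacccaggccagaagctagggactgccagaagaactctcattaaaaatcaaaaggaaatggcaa
Tmem144 chr3:79825597-79825846 (-): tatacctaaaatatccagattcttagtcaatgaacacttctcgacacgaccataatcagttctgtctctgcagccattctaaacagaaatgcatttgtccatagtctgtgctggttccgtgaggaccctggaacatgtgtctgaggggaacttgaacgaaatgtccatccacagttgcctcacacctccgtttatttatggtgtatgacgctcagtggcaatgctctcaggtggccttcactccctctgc
Atp2b1 chr10:98914392-98914570 (+): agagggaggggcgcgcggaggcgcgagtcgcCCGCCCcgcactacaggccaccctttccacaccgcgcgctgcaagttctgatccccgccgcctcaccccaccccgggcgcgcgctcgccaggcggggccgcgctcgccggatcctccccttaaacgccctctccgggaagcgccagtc

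Cdkn1a encodes p21, the cyclin-dependent kinase inhibitor through which p53 halts the cell cycle. Its member peak ran from 29090791 to 29091791 on chromosome 17, with a fold enrichment of 4.15 over background, a −log10 q of 34.7 and 123 reads at the summit. The summit lay 11 bp after the lower of the annotated starts, which is at position 29090979. That start had no H3K4me3 peak over it. The upper start lies 2790 bp farther along, inside an H3K4me3 peak of fold 5.33 that also held a weaker p300 peak of fold 2.50. The printed sequence holds an exact half-site at 29090906 to 29090915 and another at 29090928 to 29090937, with 12 bases between them. The second of these opens a 20-base run of adjacent half-sites from 29090928 to 29090947, with 1 mismatch to the p53 consensus. Its end lies close upstream of the p300 summit, within the peak.

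Bbc3 encodes PUMA, a BH3-only protein that p53 induces in apoptosis. Its member peak, 16308660 to 16309434 on chromosome 7, had a fold of 4.81, a −log10 q of 38.4 and 115 reads at the summit, which lay 377 bp before an annotated start. The peak covered only the first 102 of the 250 bases printed. The capitalised 20-base run of adjacent half-sites, from 16309486 to 16309505, carried 3 mismatches and lay outside the peak. H3K4me3 began 366 bp beyond the peak with a fold of 2.12, followed inside the gene by peaks of fold 3.08 and 4.38.

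The exact p53 half-site pair, with at most 13 bases between, occurred in 1 of the 14 windows touched by a member (Cdkn1a). It occurred in 0 of the 2828 windows with a p300 peak that carried H3K4me3, which allows a share of up to 0.130%, and in 0.0731% of all 32851 windows. The adjacent 20-base form was searched only after the sequences had been seen. With at most 1 mismatch it was found in 1 of 14 windows touched by a member, in 3 of 2828 windows with p300 and H3K4me3, and in 0.0883% of all windows. With at most 3 mismatches it was in 2 of 14 windows and 6.29% of all windows, so a match as loose as that in Bbc3 occurs in many promoters. That share does not tell whether the Bbc3 site itself binds p53. A match gives letters in a window and is no measurement of p53.

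GC boxes were in 9 of the 14 windows (64.3%, exact interval 35.1 to 87.2), in 71.3% of the windows with p300 and H3K4me3 and in 35.7% of all windows. The Atxn2l and 4930456A14Rik windows overlap and were touched by the same p300 peak, although the interval treats them as independent. Motifs can also lie outside the peak, which covered only 5 bp of the Slc17a8 window and 24 bp of the Tmem268 window. Most of the 525 members touched no promoter window. Motif and CpG values therefore describe only the few near an annotated start, not the members as a set. The median ratio of observed to expected CpG was 0.798 in the windows touched by members, 0.808 in those with p300 and H3K4me3 and 0.384 in all. With 14 windows the first of these has an interval of 0.344 to 1.06, and it was 0.482 when H3K4me3 within 1 kb was not allowed or p300 peaks needed a −log10 q of at least 10. Cdkn1a had the lowest ratio of the 14, at 0.0892, and Atp2b1, which encodes a calcium pump of the plasma membrane, the highest at 1.18. AP-1 motifs were in 1 of the 14 (Pla2g2e, a secreted phospholipase), against 7.81% of all windows. The E-box CACGTG was in 2 windows (Slc25a33 and Atp2b1), against 7.15% of all. M-box (TCATGTG) and TEAD (GGAATG) motifs were each in 1 window, that of Spry1, against 3.77% and 14.7% of all. A SOX motif (ACAAAG) was in 1 window against 18.7% of all, TFAP2 in 2 against 16.6%, and a single p53 half-site in 1 against 8.36%. CRE (TGACGTCA), ETS (CCGGAAG), RUNX (TGTGGTT), NRF1 and CTCF core motifs were in 0 of the 14, which allows up to 23.2%, against 1.79%, 8.86%, 5.27%, 0.971% and 2.43% of all. Only the H4c6 window of the 14 itself held part of an H3K4me3 peak, 93 bp from its p300 peak.

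**Figure D1:**
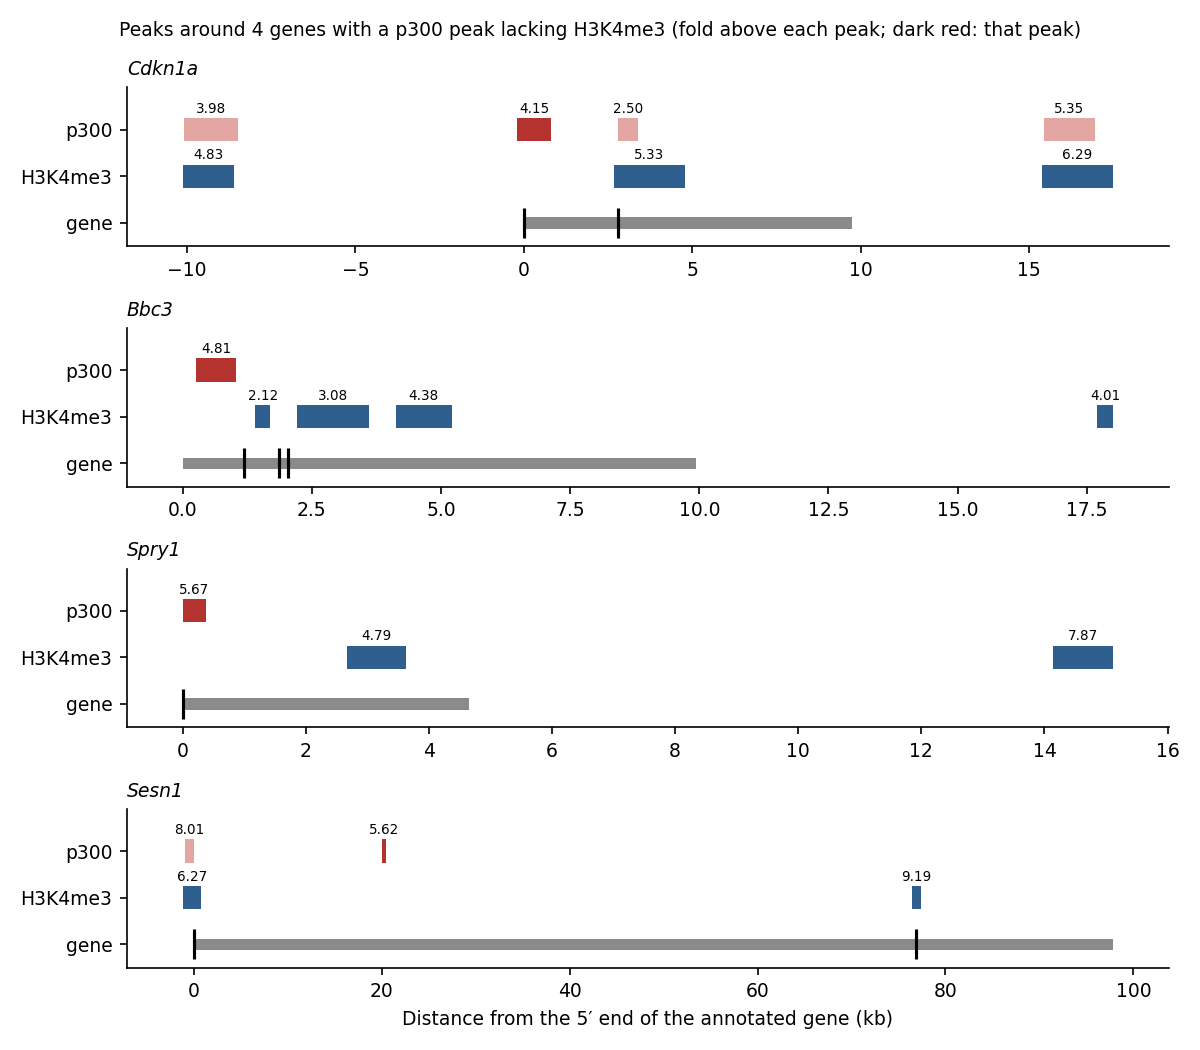
Peak positions around Cdkn1a, Bbc3, Spry1 and Sesn1, with distance from the 5′ end of each gene in kb on the horizontal axis; bars are p300 peaks, H3K4me3 peaks and genes, ticks are annotated starts and numbers are the authors' fold. The dark red peaks are those without H3K4me3, of fold 4.15, 4.81, 5.67 and 5.62; in Cdkn1a and Spry1 the dark red peak lies at the annotated 5′ end and H3K4me3 lies farther inside.

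In fold the genic p300 peaks without H3K4me3 stood close to the rest of the p300 list. Their median fold was 5.67 (interval of the median 5.48 to 5.84, quartiles 4.80 and 6.86, range 2.56 to 11.7). The median was 5.78 at gene ends with H3K4me3, 5.64 inside genes with H3K4me3, and 5.91 and 5.93 for intergenic peaks with and without it. Their summits held a median of 37 reads (35 to 40), the same as at gene ends with H3K4me3, with 42 inside genes with H3K4me3, and 44 and 33 in intergenic peaks with and without it. Their median −log10 q of 14.6 (13.9 to 15.6) was below the 16.3 (15.61 to 16.8) inside genes with H3K4me3 and the 17.2 (16.3 to 18.2) of intergenic peaks with it, with intervals that did not overlap. It was 14.9 (14.4 to 15.5) at gene ends with H3K4me3.

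Width set them apart more clearly. The median was 576 bp (548 to 596), against 661 bp (642 to 684) inside genes with H3K4me3 and 628 bp (614 to 641) at gene ends with it, and those intervals did not overlap. A wider p300 peak has more bases with which to meet an H3K4me3 peak, so the rule itself favours narrow members. Intergenic p300 peaks without H3K4me3 had a median width of 533 bp (509 to 560), whose interval met that of the members.

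**Figure D2:**
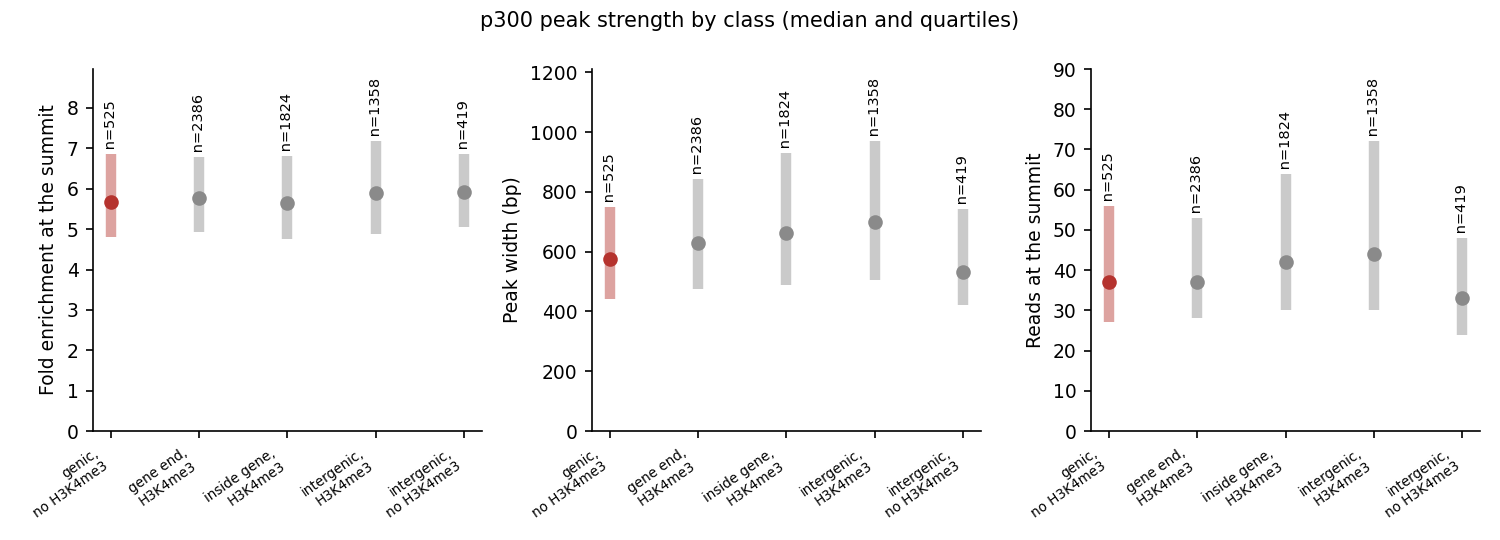
Median (points) and quartiles (bars) of fold enrichment, width in bp and summit reads for the 525 genic p300 peaks without H3K4me3 (red) and 4 other groups of p300 peaks (grey). The fold medians lie between 5.64 and 5.93, while the red width median of 576 bp lies below the groups with H3K4me3.

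The strongest member by −log10 q lay in Panx1, which encodes a large-pore membrane channel. It ran from 15036237 to 15037367 on chromosome 9, with a fold of 9.81, a −log10 q of 199 and 329 summit reads. In Aff3, a gene of the transcription elongation factor family, the member had a −log10 q of 91.0 and 183 reads. The H3K4me3 peak nearest to the Panx1 peak was 6937 bp away.

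The 25 members of highest −log10 q had values from 55.2 to 199, folds from 6.33 to 11.7 and widths from 384 to 1400 bp. Just 1 of the 25 lay at a gene end, and 18 had H3K4me3 at an end of their gene. Their distances to H3K4me3 ranged from 234 bp, at the guanine nucleotide exchange factor gene Trio, to 185932 bp, at Myo3a. Other genes among them were Zan, Strn, Tusc3, Ubap1, Commd10, Tanc2, Supt3, Ppfibp2, Arhgap12, Rfx3 and Lipc. Several encode proteins of broad use: Ago2, the slicer of RNA interference, had a fold of 7.32, and Hgsnat, a lysosomal acetyltransferase, 8.52. Hdac8, a class I histone deacetylase, had 8.72 in a peak 101370 bp from H3K4me3.

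Slc7a11 encodes the cystine transporter that supplies glutathione synthesis. Its member, at 50437826 to 50438666 on chromosome 3, had a fold of 7.71 and 158 reads, 4095 bp from H3K4me3 and 5366 bp from an annotated start of the gene. On the X chromosome 1 member, of fold 6.752 and 178 reads, lay inside both Ikbkg and G6pdx. These overlapping genes encode the NEMO subunit of the NF-kB kinase complex and glucose-6-phosphate dehydrogenase, and a shared peak cannot be assigned to either. At Gm42048 the peak lay 856 bp outside the gene, with a fold of 8.87 and 149 reads.

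By fold the highest member was in Arhgap12, a GTPase-activating protein gene, at 11.7, followed by Arhgap6, of the same family, at 11.6. The 10 highest ran from 9.62 to 11.7, and 7 of them were also among the 25 of highest −log10 q. The Arhgap6 peak had only 44 summit reads. Sema3d, a secreted guidance cue, reached 10.1 with 32, and Tmem164 reached 9.62 with 47. The folds of Arhgap6, Sema3d and Tmem164 therefore rest on fewer reads than the 117 of Tusc3 at 10.9.

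The widest members named here had folds below the median of all members. Over all 525 members, however, Spearman's correlation of width was 0.14 with fold and 0.55 with −log10 q. Slfn14 held the widest at 2512 bp, with a fold of 3.84. Coa8 followed at 2024 bp and Rps15a at 1970 bp, with folds of 5.18 and 5.33, and Hhat had a member of 1746 bp with a fold of 5.20.

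Only a small share of members lay within 1 kb of a gene's end, namely 59 of 525 (11.2%, 8.67 to 14.3). Their median fold was 4.83 (4.48 to 5.33), against 5.80 (5.61 to 5.98) for the 466 farther inside. Their summits held a median of 43 reads over a background of 7.66 reads, against 36.5 over 5.23, and the part of the background in the lower fold was not tested. The strongest were at Gm42048, at Xirp1 (−log10 q 53.03), inside Hmga1 and within 1 kb of its neighbour AI413582 (50.1), at Rps15a (47.4) and at Bbc3. A start annotated inside a gene does not count as an end, and 6 members contained an annotated start. Of the 525, 504 shared a base with a gene, 514 belonged to 1 gene only, and 31 also overlapped a noncoding gene.

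Where the strand was known, members were spread along genes. Over 420 peak and gene pairs the median summit lay at 49.6% of gene length from the 5′ end, against 40.8% for p300 inside genes with H3K4me3 (1502 pairs). The first 10% of the gene held 6.90% of the pairs (4.67 to 9.77), against 12.45% (10.8 to 14.2) for the latter, although that group leaves out gene ends and the members do not. The last 10% held 8.57% (6.08 to 11.7) against 5.53% (4.43 to 6.80), intervals that overlapped. At gene ends with H3K4me3 the first 10% held 87.0%.

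**Figure D3:**
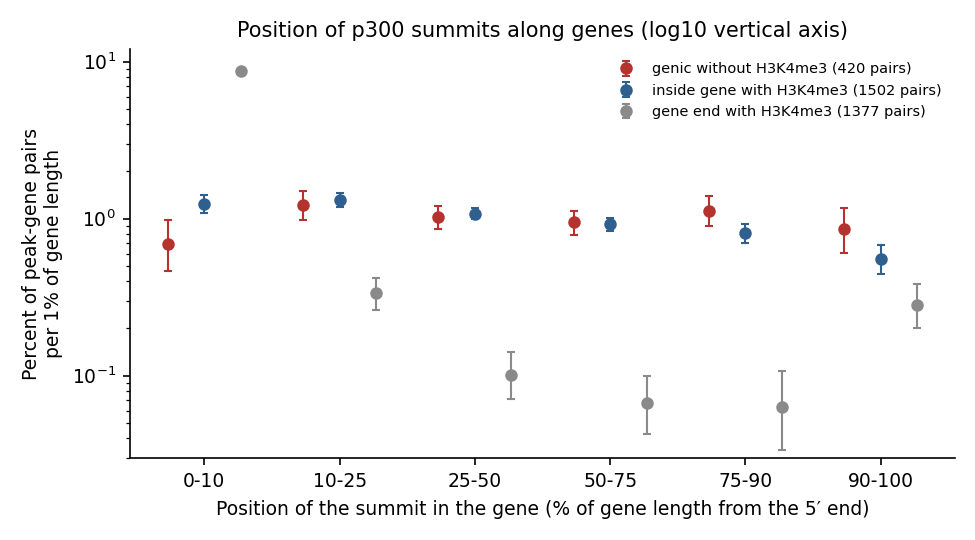
Share of p300 summit and gene pairs per 1% of gene length (vertical log10 axis) in 6 intervals from the 5′ end to the 3′ end (horizontal axis); points are shares and bars exact 95% binomial intervals. The red points of p300 without H3K4me3 (420 pairs) stay near 1 throughout and are lowest in the first 10%, whereas p300 at gene ends with H3K4me3 (1377 pairs) falls steeply after it.

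The distance from a member to the nearest H3K4me3 peak had a median of 13396 bp (11110 to 15266), with quartiles of 4162 and 36138. H3K4me3 was within 1 kb of 45 members (8.57%), within 10 kb of 225 (42.9%) and within 100 kb of 474 (90.3%). Intergenic p300 peaks without H3K4me3 had a median of 20449 bp (14980 to 24272) and 34.6% (30.1 to 39.4) within 10 kb, against 38.6 to 47.2 for the members, and both pairs of intervals overlapped. At the rule's edge, members at Sh3bp2, Ap2b1 and Yy1 missed H3K4me3 by 17, 30 and 30 bp, while p300 peaks at Sec63, Lmntd1 and Celf1 shared 1, 7 and 9 bp with it and were left out. In all, 7 members lay within 100 bp of H3K4me3, and 33 genic p300 peaks overlapped it by fewer than 100 bp. At the edge of the gene window, members lay up to 970 bp from a gene, and the nearest left out lay at 1019 bp. The farthest members from H3K4me3 were in Cntnap5a (2201906 bp), Erbb4 (743965 bp) and Arhgap24 (630343 bp), with folds of 6.74, 5.29 and 5.99.

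Fold was higher farther from H3K4me3. The 45 members within 1 kb of it had a median fold of 4.48 (4.21 to 4.81), a median of 50 summit reads and a local background of 11.7 reads (8.15 to 15.0). The 96 members more than 50 kb away had a median fold of 6.89 (6.57 to 7.34), 30 summit reads and a background of 3.62 reads (3.09 to 3.99). Over the 525 members, which share a library, Spearman's correlation was 0.49 between distance and fold and −0.53 between distance and background. Reads and background moved in the direction opposite to fold, and the part of the background in the difference of folds was not tested.

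**Figure D4:**
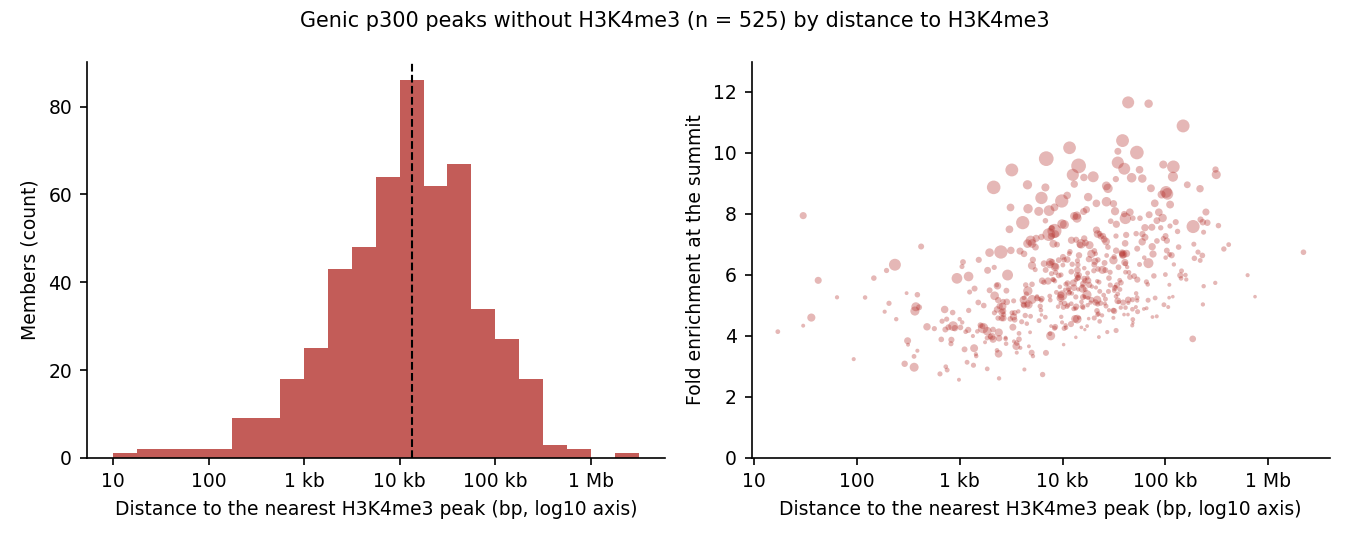
Left, the number of members by distance to the nearest H3K4me3 peak (log10 axis, bp), with the median of 13396 bp dashed. Right, fold against the same distance, with point area growing with −log10 q between a lower and an upper limit. Members close to H3K4me3 have lower folds, and no member within 1 kb of H3K4me3 exceeds a fold of 9.

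Members had p300 neighbours more often than gene-end peaks did. Another p300 peak lay within 12500 bp of 150 members (28.6%, 24.7 to 32.6), against 17.5% (16.01 to 19.10) at gene ends with H3K4me3, 25.9% (23.9 to 28.0) inside genes with it and 22.7% (18.75 to 26.99) for intergenic peaks without it. Intergenic peaks with H3K4me3 had a share of 29.2% (26.8 to 31.7), like that of the members. Within 5 kb the members' share was 12.2% (9.52 to 15.3), against 8.44% (7.21 to 9.81) inside genes with H3K4me3 and 11.3% (9.70 to 13.2) for intergenic peaks with it. Across chromosomes, the share of genic p300 peaks that were members ran from 7.97% (4.05 to 13.8) on chromosome 14 to 15.8% (11.5 to 20.9) on chromosome 5 among the autosomes, and was 5 of 47 on X.

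Members lay in or near 506 of the 21887 protein-coding genes (2.31%). H3K4me3 stood within 1 kb of an end in 363 of these genes (71.7%, 67.6 to 75.6), against 50.5% of all protein-coding genes and 66.3% (63.8 to 68.8) of genes with p300 and H3K4me3 together inside. It stood somewhere in the gene or within 1 kb in 457 (90.3%), against 58.9% of all. For 254 of the 506 genes (50.2%) the members were the only p300 peaks, since none with H3K4me3 was in the gene or within 1 kb.

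Genes with members were long. Their median length was 83107.5 bp, against 17169 bp for all protein-coding genes and 71470.5 bp for genes with p300 and H3K4me3 inside. Split into 10 classes of equal number by length, 0.0913% of the shortest genes held a member and 9.59% (8.39 to 10.9) of the longest. Per unit of sequence, with the 1 kb windows counted in, the longest class held 38.9 members per 100 Mb. The other classes held 31.0 (the shortest, with 2 members) to 75.7 (class 4), in no order of length. H3K4me3 at an end was more frequent among genes with a member than among all genes of the class in every class but class 4. The interval lay above the share of all genes in classes 7 to 10, and in class 1 with its 2 genes. In the longest class it was at 68.1% (61.3 to 74.3) against 50.2%, and in class 7 at 80.4% (66.9 to 90.2) against 61.3%. In class 4 the order was reversed, at 42.1% (20.3 to 66.5) of 19 genes against 54.4%. In classes 2 to 6 the interval included the share of all genes.

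**Figure D5:**
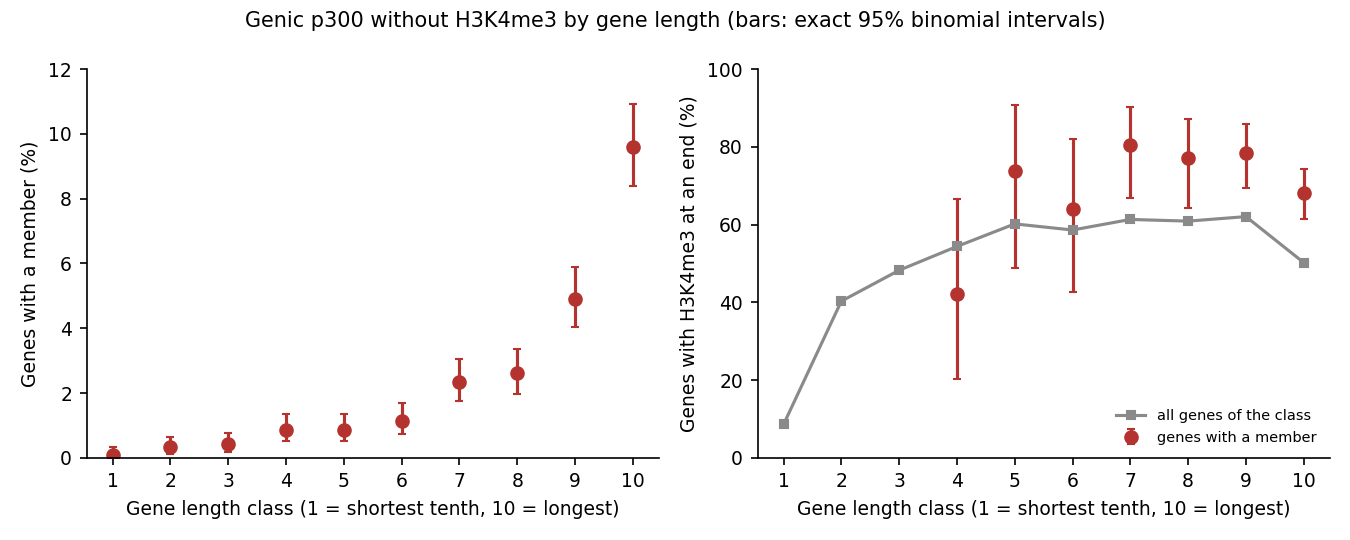
Left, percent of protein-coding genes with a p300 peak lacking H3K4me3 in 10 length classes; right, percent with H3K4me3 at an end for genes with such a peak (red, classes of 10 genes or more) and for all genes of the class (grey); error bars are exact 95% binomial intervals. The left points reach 9.59% in class 10, and the red points lie above the grey line in every class shown except class 4.

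In 29 genes there were several members, and 4 genes held 3. In Pde4d, which encodes a cAMP phosphodiesterase, the folds were 6.85, 9.29 and 7.19, all over 95 kb from H3K4me3. Fmn1, which encodes the actin nucleator formin 1, had folds of 3.04, 10.2 and 4.64, so 1 of its peaks stood above the others. In Xylt1, which starts proteoglycan chains, they were 5.00, 5.76 and 5.76, and in Gask1b 3.34, 4.30 and 3.90. Pairs of members lay in Ppfibp2, Denn2b, Vps13b, Myo1e, Myof and Ncoa1, among other genes.

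Pigment cell genes held members in 5 of 29 cases (17.2%, 5.85 to 35.8), against 2.31% of all genes and 2.33% in the length class of the list's median. The listed genes differ in length, so that class is only a rough guide. Myo5a and Oca2 fall in the longest class, where 9.59% of genes had a member, and Rab38 in class 9, with 4.89%. The highest fold was 9.48 in Myo5a, whose myosin V carries melanosomes along actin, with 109 summit reads at 82.3% of the gene's length and 39792 bp from H3K4me3. Oca2, a melanosomal ion transport gene, had 5.997, and Rab38, a GTPase of melanosome biogenesis, 5.82, with 20 and 25 reads. At Mlana, which encodes the melanosomal protein MART-1, and at the repressor gene Tbx2 the members covered the lower-coordinate end of the gene with folds of 4.28 and 4.28. H3K4me3 lay 3285 and 1015 bp away. Over the whole list, 26 of 29 genes had H3K4me3 in the gene or within 1 kb and 21 had p300. In a shorter set of 10 melanocyte markers the counts were 10 and 8, and 2 of them, Mlana and Rab38, had a member. Among all genes, 58.9% had H3K4me3 in the gene or within 1 kb. p300 with H3K4me3 was at an end in 13.6% of all genes and inside in 6.41%. Both shares leave out p300 without H3K4me3, which the count of 21 includes. The pigment list, chosen with earlier results of these data known, was rich in p300 of any kind, and not only in members. None of 21 neural crest genes had a member, which allows up to 16.1%, and 1 had one under the summit rule or with a 5 kb gene window.

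Genes reported as p53 targets held members in 6 of 33 cases (18.2%, 6.98 to 35.5), against 2.31% of all genes and 1.14% in the length class of the list's median. That class is again only a rough guide, since Sesn1 falls in class 9, where 4.89% of genes had a member. The folds were 5.62 in Sesn1, a stress-induced inhibitor of mTORC1 signalling, 5.38 in Mdm4, a p53 inhibitor, 4.69 in the repair nuclease gene Ercc5, and 4.81 and 4.15 in Bbc3 and Cdkn1a. One peak, of fold 4.55 and 113 reads, lay within 1 kb of both the repair gene Xpc and its neighbour Tmem43. All 6 were below the members' median fold of 5.67, so the count became 0 when only p300 peaks above the list's median fold were kept. Any p300 peak, with or without H3K4me3, lay in or within 1 kb of 17 of the 33 genes. Among all genes, 13.6% had p300 with H3K4me3 at an end and 6.41% had it inside. Both shares leave out p300 without H3K4me3, which the count of 17 includes. This list, also chosen with earlier results of these data known, was rich in p300 of any kind, and not only in members. In Sesn1 the member lay about 20 kb into the gene with 20 reads, whereas p300 at its 5′ end had a fold of 8.01 and lay with H3K4me3 of fold 6.27.

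Listed genes of the actin cytoskeleton and the small GTPases that control it held members in 6 of 34 cases (17.6%, 6.76 to 34.5). The list left out Arhgap12, Arhgap6 and Fmn1, which also held members. The list's median length of 186 kb falls in the longest class, where 9.59% of genes had a member, and the interval includes that share. The 6 were the unconventional myosin gene Myo1e (8.09), the exchange factor genes Arhgef12 (7.97) and Trio (6.33), the GTPase-activating protein genes Arhgap10 (6.42) and Arhgap24 (5.99), and Actn4 (3.61), which encodes an actin crosslinker.

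Other lists held fewer. All the lists are selections and can leave out related genes that held members. Lysosomal and endosomal genes had members in 3 of 25, namely Tfec (7.13), a relative of MITF, the proton pump gene Atp6v1b2 (4.96) and the protease gene Ctsb, with folds of 4.00 and 2.73. MAPK feedback genes had 2 of 25, the inhibitor genes Spry1 (5.67) and Nf1 (5.28). Wnt genes had 2 of 24 (Znrf3, 6.34, and Tle3, 4.96), adhesion genes 2 of 31 (Itgb3, 9.22, and Pxn, 3.44), and guidance genes 2 of 31 (Sema3d and Slit2, 6.67). Histone acetylation genes had 2 of 25 (Hdac8 and the coactivator gene Ncoa1, 7.78 and 6.10). The TGF-beta list had Smad3 (5.55) among 25 and the immediate early list Klf10 (3.33) among 24. The listed YAP and TEAD factors and targets (20), excision repair and demethylation genes (23) and ribosomal protein genes (27) had none. The ribosomal list left out Rps15a, whose member is named above. Counts of 0 in lists of this size allow up to 16.8%, 14.8% and 12.8%, all above the 2.31% of all genes. When the p300 summit alone had to lie outside H3K4me3, the YAP and TEAD list had 2 and the ribosomal list 1, and with p300 peaks of −log10 q of at least 10 the MAPK list had 0. In total 32 of 472 list genes had a member, against 2.31% of all genes. Many list genes were long, and longer genes held members more often. In the length class of the list's median, 9.59% of genes had a member for guidance genes, above that list's 6.45%. The class share was 4.89% for the MAPK, adhesion, histone acetylation and TGF-beta lists. It was 2.61% for Wnt, 2.33% for lysosomal and endosomal and 0.868% for immediate early genes.

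Markers of other cell types had no member in any of the 6 lists: epithelial (0 of 12), myeloid (0 of 13), lymphocyte (0 of 14), stromal (0 of 13), muscle (0 of 11) and neural (0 of 13). Counts of 0 in these lists allow up to 23.2% to 28.5%, above the 2.31% of all genes. The epithelial list had 1 when only H3K4me3 peaks of −log10 q of at least 10 were used. The lists had H3K4me3 in or within 1 kb of 2, 2, 4, 7, 4 and 6 of their genes, against 58.9% of all genes.

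Of the genes the series is built around, Tdg, Trp53 and Ep300 had no member. The nearest lay 420949 bp from Tdg, 160737 bp from Trp53 and 16504 bp from Ep300, the last in L3mbtl2 with a fold of 3.45. Trp53 had 1 p300 peak and 1 H3K4me3 peak, and its p300 peak met H3K4me3, while Tdg and Ep300 had no p300 peak listed. No listed peak means only that none was called, at a depth and calling threshold that are not stated. The smallest called p300 summit held 14 reads and the smallest H3K4me3 summit 15.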

How the data were processed

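Peak lists of wild-type B16 cells for p300 and H3K4me3, 1 CUT&Tag library each, were used. Groups came from sample titles. Per the labels' protocols, 1 µg of antibody, 18 PCR cycles and 150 bp paired reads were used. The submitters' processing notes name mm10 as the build and deepTools, Picard 2.22.4, Bowtie2 2.2.5 and Trim Galore as tools. Neither a peak caller nor a control library is given in the sources used here. The authors deposited, for each peak, a fold enrichment, read as a ratio of summit to background, −log10 p and −log10 q values and a score. These values are the authors', describe or rank peaks within a list, and can be raised by PCR copies.

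Summit reads and background were solved from fold and −log10 p, under the assumption that fold is summit reads plus 1 over background plus 1, and whole numbers matched within 0.002 for 100% of members, 99.7% of p300 peaks and 99.9% of H3K4me3 peaks. The median summit held 39 reads for p300 and 80 for H3K4me3; total depth is unknown. The recovery code was tested on data simulated under the same assumption, which does not test the assumption itself. Peaks on scaffolds and the mitochondrial chromosome were left out (6512 of 6529 p300 and 27019 of 27043 H3K4me3 peaks used). Genes were the 21887 protein-coding genes of RefSeq GRCm38.p6; strand and starts came from RefSeq promoter windows, matched by gene ID for 17492 genes. The list says where genes begin and end, not their exons. The planned windows at peak summits needed a genome, which was not used here, so motifs and CpG were measured in the promoter windows that members touched, on both strands. GC boxes can overlap CpG-rich TFAP2 matches.

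Shares carry exact Clopper-Pearson 95% intervals and medians exact order-statistic intervals, computed with Python 3.11.15, pandas 2.3.3 and scipy 1.17.1. Alternatives changed the overlap rule, gene window, peak thresholds, end and neighbour distances and chromosomes. The text names the 25 members of highest −log10 q, the 10 of highest fold, the 5 widest, the 5 strongest at gene ends, the 10 genes with most members, up to 6 genes per list by fold, the 3 nearest to and farthest from H3K4me3, and Tdg, Trp53, Ep300 and Cdkn1a. Genes of the promoter windows and of the rule's edge, and L3mbtl2, were named besides. A few members that this rule names are not reported here. Members, lists and most rules were chosen with earlier results of these data known.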

Additional observations from a re-analysis of the deposited data

How the results depend on the processing

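The host-gene share with H3K4me3 at an end moved by less than its interval under every alternative run; the median CpG ratio did too, within a wide interval, and ranged from 0.482 to 0.831. No paired analysis was possible because each antibody had 1 library. Requiring p300 peaks above the list's median fold left 251 members in 248 genes and 15 list genes, with a median fold of 6.98, a width of 602 bp, a distance to H3K4me3 of 22120 bp, 5.98% at gene ends, 7.17% with another such p300 peak within 12500 bp, and any motif in 50.0% (1.26 to 98.7) of the 2 windows left, against 85.7% of 14; neighbours below the threshold are removed by construction. Keeping p300 peaks of −log10 q of at least 10 gave a fold of 6.08, a width of 621 bp and 23.0% with a neighbour. Testing the p300 summit in place of any shared base raised the share of genic p300 peaks to 15.4%, the width to 598 bp and the share at gene ends to 20.1%, and lowered the distance to 5492 bp. Requiring no H3K4me3 within 1 kb gave 10.1% of genic peaks and 8.54% at gene ends, and H3K4me3 peaks of −log10 q of at least 10 gave 12.8% of genic peaks. The share at gene ends was 7.54% for peaks in a gene only and 15.0% with a 2 kb end window. The share with a p300 neighbour was 12.2% within 5 kb and 40.0% within 25 kb. Counting each gene once in place of each member was added after the data were seen. Windows of 300 and 100 bp at the summit and flanking windows were not run. Depth and the unstated calling threshold limit weak sites: no p300 peak with fewer than 14 summit reads was listed.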
